A study of Mus musculus with 12 samples.

Results

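The genes described here encode the MHC class II antigen presentation machinery (H2-Aa, H2-Ab1, H2-Eb1, Cd74 and Ciita) and proteins that mark resident mononuclear phagocytes (Csf1r, Adgre1, Cx3cr1, Cd68 and Lyz2). They were taken by name as 10 of the 47719 genes in the deposited table, and 9 of them passed the filter on low values. RNA of the kidney cortex was sequenced in 12 libraries from male C57BL6/J mice, given as 8 weeks old, in 4 groups of 3 libraries. All mice received a liquid diet for 6 weeks. In the ethanol groups it was the Lieber DeCarli diet, raised stepwise to 6% ethanol, and in the pair-fed groups an isocaloric diet with maltose-dextrin. EtOH4hLPS mice had the ethanol diet and PF4hLPS mice the pair-fed diet, and both received 10 mg/kg of E. coli lipopolysaccharide (LPS, a bacterial outer membrane component sensed through TLR4) intraperitoneally 4 hours before the kidneys were taken. EtOH mice had the ethanol diet and PF mice the pair-fed diet, and both received saline. The labels name the source as whole kidney and the region as cortex, and they do not say whether each library came from a different mouse, so every p-value measures the spread between these libraries.

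MHC class II molecules are pairs of an alpha and a beta chain that carry peptides of ingested proteins to the surface of dendritic cells, macrophages and B cells, where CD4+ T cells read them. The invariant chain, encoded by Cd74, guides the pairs to the endosome. Transcription of these genes depends on CIITA, a coactivator that binds no DNA itself and is recruited by a complex of RFX, CREB and NF-Y proteins on conserved X and Y boxes in the promoters. In the kidney, resident mononuclear phagocytes form a network around the tubules; they depend on the CSF1 receptor and express the fractalkine receptor CX3CR1.

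Promoters of 4 class II genes that hold a Y box core are shown because Ciita rose after LPS while none of its class II target genes was called higher. The stretches below come from the RefSeq promoter table (GRCm38.p6), run 5′ to 3′ on the gene's strand, and lie within 250 bases before the annotated start. Capitals mark the Y box core TGATTGG, the X box core AACNGATG (N for any base) and, in H2-Aa, the cyclic AMP response element TGACGTCA. H2-Aa lies on the minus strand at chr17:34287855-34287935, and the others on the plus strand at chr17:34305744-34305824 (H2-Eb1), chr17:34153066-34153146 (H2-DMb1) and chr17:34145095-34145175 (H2-DMb2).
H2-Aa: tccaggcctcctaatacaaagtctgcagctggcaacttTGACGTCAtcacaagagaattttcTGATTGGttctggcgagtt
H2-Eb1: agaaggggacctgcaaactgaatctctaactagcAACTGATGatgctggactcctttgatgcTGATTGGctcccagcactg
H2-DMb1: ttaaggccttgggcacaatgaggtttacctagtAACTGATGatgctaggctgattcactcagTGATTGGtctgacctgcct
H2-DMb2: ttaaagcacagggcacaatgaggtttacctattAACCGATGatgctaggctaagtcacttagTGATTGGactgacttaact

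The Y box began 50 bases before the start in H2-Aa, 61 in H2-Eb1, 63 in H2-DMb1 and 92 in H2-DMb2. The X box began 28 bases before the Y box in H2-Eb1 and 29 bases before it in H2-DMb1 and H2-DMb2, and the cyclic AMP response element began 24 bases before the Y box in H2-Aa. Searched on both strands in all 32851 promoters of the table, TGATTGG was found in 7.23%, AACNGATG in 1.98% and TGACGTCA in 1.55%; the 3 motifs do not overlap in the stretches shown. H2-Eb2 also held both boxes, H2-Oa, H2-Ob and Cd68 held TGATTGG, and H2-DMa, Cx3cr1 and Lyz2 held none of the 3. H2-Ab1, Ciita and Adgre1 have no entry among these promoters and were not searched, and matches of Cd74 and Csf1r are not reported here. These matches describe letters in a window and not occupied sites.

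The values are FPKM, a fragment count scaled by transcript length and library size, from the authors' table. Fold changes are on the log2(FPKM + 1) scale, on which changes of weakly expressed genes look smaller than they are. A gene is called where the adjusted p of limma, over 14109 genes that reached 1 FPKM in at least 3 libraries, is under 0.05. The FPKM of a library summed to between 1005000 and 1936000. Fragment totals are unknown. A rough depth relative to PF library 1, read from the commonest spacing of low values (shared by 15.4% to 20.4% of the low genes), ran from 0.491 in PF4hLPS library 2 to 1.199 in PF library 3. None of the 6 LPS libraries exceeded 0.762, and the shallowest saline library, EtOH library 2, had 0.72. Correlations between libraries of 1 group were 0.9141 to 0.9647 across the genes tested. For each library, the deviation of log2 values from its group's mean was related to transcript GC content. The slope per 10 percentage points of GC was -0.446 in PF4hLPS library 2, -0.329 in EtOH4hLPS library 1 and -0.274 in PF library 1. It was -0.072 to 0.235 in the other 9. Each slope is relative to the other libraries of its group, so a low slope in 1 library raises those of the others. Proximal tubule and podocyte genes (7 markers) summed to 982.7 to 1833 FPKM, and those of the thick ascending limb and collecting duct (4 markers) to 592.4 to 1001 FPKM, so both cortical markers and markers shared with the medulla were present in every library.

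After LPS the class II coactivator gene rose in both diets, while none of the 4 genes for class II chains and invariant chain passed the test in either diet. Of the phagocyte genes, Lyz2 rose in pair-fed kidneys and Cx3cr1 dropped to near 0 in both diets. In PF4hLPS against PF kidneys, 2 of 9 genes were called higher, beside 11.3% of all genes tested, and 0 of 9 lower, beside 6.89%; at an unadjusted p under 0.05 there were 4 (Ciita and Lyz2 higher, H2-Eb1 and Csf1r lower). In EtOH4hLPS against EtOH kidneys, 1 of 9 was called higher, beside 10.7% of all genes, and 0 of 9 lower, beside 6.39%; at an unadjusted p under 0.05 there was 1. The count called higher includes Ciita, which passed the filter only through its LPS libraries and so had to differ.

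**Figure D1:**
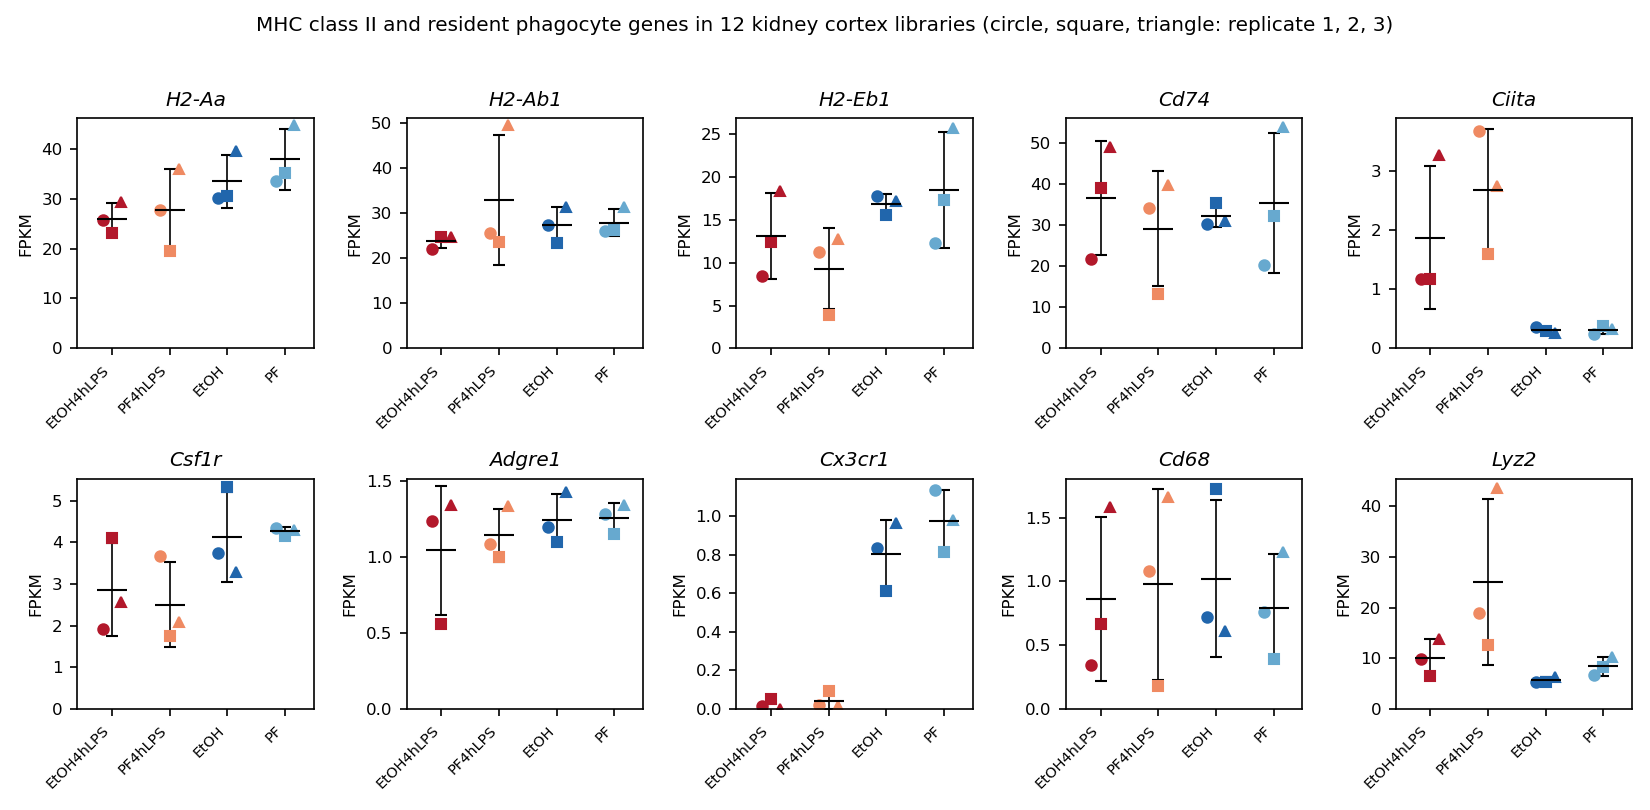
FPKM of the 10 genes (vertical axes, each from 0) in the 12 libraries, grouped as EtOH4hLPS, PF4hLPS, EtOH and PF. Coloured symbols are libraries, black bars are the mean ± SD of 3 libraries (left out where a library is listed at 0). Ciita is above 1.1 FPKM in the 6 LPS libraries and below 0.4 FPKM in the 6 saline libraries, and Cx3cr1 shows the opposite order.

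Ciita (chr16:10480059-10528418, GRCm38, plus strand, 24 merged exons) had 1.17, 1.18 and 3.28 FPKM in EtOH4hLPS libraries, 3.68, 1.61 and 2.76 FPKM in PF4hLPS libraries, 0.361, 0.293 and 0.265 FPKM in EtOH libraries and 0.242, 0.372 and 0.332 FPKM in PF libraries. Every LPS library lay above every saline library. The gene rose by 1.06 ± 0.27 (SE) on the log2 scale in EtOH4hLPS against EtOH kidneys (limma, adjusted p = 0.0185) and by 1.45 ± 0.27 in PF4hLPS against PF kidneys (adjusted p = 0.00294). The group means were 1.88 ± 1.22 FPKM in EtOH4hLPS, 2.68 ± 1.04 in PF4hLPS, 0.306 ± 0.0495 in EtOH and 0.315 ± 0.0665 in PF libraries (SD, n = 3 each), so the 2 LPS groups differed by less than their spread, and so did the 2 saline groups. The call in ethanol-fed kidneys was lost without EtOH4hLPS library 3, the highest of its group (0.74, limma, adjusted p = 0.0608), without EtOH library 2 or 3 (adjusted p = 0.0579 each) and without the filter on low values (adjusted p = 0.056). Ciita shares 329 exonic bases with Dexi on the opposite strand, and the strand setting of the authors' counting is not given in the sources used here. Dexi itself averaged 2.61, 3.02, 3.23 and 3.44 FPKM in EtOH4hLPS, PF4hLPS, EtOH and PF libraries and was not called with ethanol (limma, adjusted p = 0.699) or with pair-feeding (adjusted p = 0.85).

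None of the class II genes that CIITA controls was called higher. H2-Aa (chr17:34282744-34287823, minus strand, 5 merged exons), the alpha chain of the I-A molecule, had 25.7, 23.1 and 29.2 FPKM in EtOH4hLPS libraries, 27.7, 19.5 and 35.9 in PF4hLPS libraries, 30.2, 30.6 and 39.6 in EtOH libraries and 33.6, 35.2 and 44.8 in PF libraries. In ethanol-fed kidneys each LPS library lay below each saline library, and in pair-fed kidneys PF4hLPS library 3 lay above 2 of the PF values. The log2 difference was -0.35 ± 0.22 for EtOH4hLPS against EtOH (limma, adjusted p = 0.352) and -0.47 ± 0.22 for PF4hLPS against PF (adjusted p = 0.177). Its 95% interval in pair-fed kidneys ran from -0.96 to 0.02.

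H2-Ab1 (chr17:34257689-34269419, plus strand, 6 merged exons), the beta chain that pairs with H2-Aa, had 22.0, 24.8 and 24.8 FPKM in EtOH4hLPS libraries, 25.7, 23.7 and 49.5 in PF4hLPS libraries, 27.3, 23.4 and 31.4 in EtOH libraries and 26.1, 26.2 and 31.5 in PF libraries. PF4hLPS library 3 was the highest of the 12, and the groups overlapped in both diets. The log2 difference was -0.18 ± 0.25 for EtOH4hLPS against EtOH (95% interval -0.72 to 0.35) and 0.16 ± 0.25 for PF4hLPS against PF (95% interval -0.38 to 0.69).

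H2-Eb1 (chr17:34305867-34316674, plus strand, 6 merged exons) encodes the beta chain of the I-E molecule. The alpha gene of that pair, annotated as the pseudogene H2-Ea-ps, is listed at 0 in all 12 libraries; C57BL/6 mice are known to lack the I-E alpha chain. H2-Eb1 had 8.44, 12.5 and 18.4 FPKM in EtOH4hLPS libraries, 11.2, 3.93 and 12.8 in PF4hLPS libraries, 17.7, 15.5 and 17.2 in EtOH libraries and 12.3, 17.3 and 25.7 in PF libraries. The groups overlapped in both diets, and PF4hLPS library 2 was the lowest of the 12. The log2 difference was -0.40 ± 0.39 for EtOH4hLPS against EtOH (limma, adjusted p = 0.571) and -0.99 ± 0.39 for PF4hLPS against PF (adjusted p = 0.105), and without PF4hLPS library 2 the second value was -0.52 (adjusted p = 0.315).

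Cd74 (chr18:60803848-60812652, plus strand, 9 merged exons), the invariant chain, had 21.8, 39.1 and 49.2 FPKM in EtOH4hLPS libraries, 34.4, 13.4 and 40.0 in PF4hLPS libraries, 30.3, 35.5 and 31.2 in EtOH libraries and 20.4, 32.2 and 54.1 in PF libraries. The groups overlapped almost completely. The log2 difference was 0.11 ± 0.43 for EtOH4hLPS against EtOH (95% interval -0.85 to 1.06) and -0.30 ± 0.43 for PF4hLPS against PF (-1.26 to 0.65), so changes of nearly 1 on the log2 scale in either direction lay inside both intervals. Without PF4hLPS library 2, the lowest of the 12, the value in pair-fed kidneys was 0.16 (adjusted p = 0.829).

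The sum of H2-Aa, H2-Ab1, H2-Eb1 and Cd74 was 77.9, 99.4 and 121.5 FPKM in EtOH4hLPS libraries, 99.0, 60.4 and 138.2 in PF4hLPS libraries, 105.5, 105.0 and 119.3 in EtOH libraries and 92.5, 110.9 and 156.0 in PF libraries. Both the lowest and the second highest sum of the 12 were in PF4hLPS kidneys. In whole tissue, fewer cells of a type and less RNA per cell cannot be told apart.

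**Figure D2:**
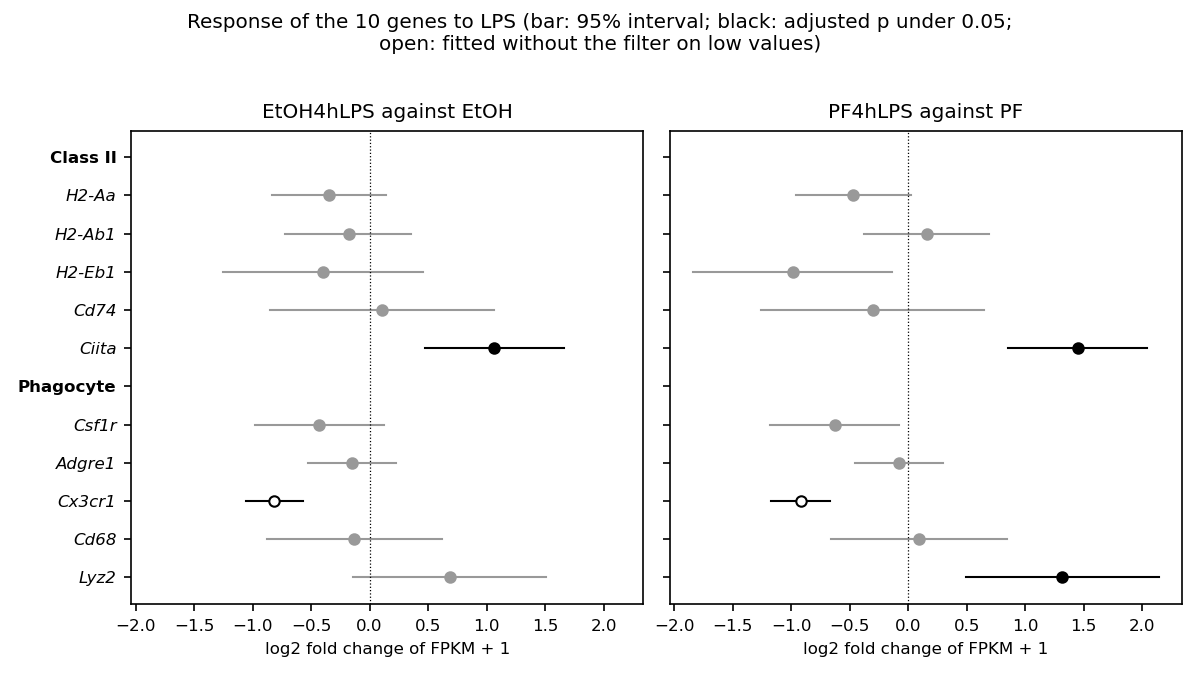
Log2 fold change of FPKM + 1 (horizontal axis) of the 10 genes in EtOH4hLPS against EtOH (left) and PF4hLPS against PF (right); points are limma estimates, bars are 95% intervals, black marks adjusted p under 0.05 and the open circle the fit without the filter on low values. Ciita is the class II gene whose interval lies above 0 in both panels, and Cx3cr1 lies below 0 in both.

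The calls of the class II chains in pair-fed kidneys depended on how the libraries were scaled. With every library scaled to the same FPKM total, the median fold change of all genes shifted to -0.26 for EtOH4hLPS against EtOH and to -0.41 for PF4hLPS against PF, and 35.5% and 25.1% of the called genes were higher, where the deposited values gave 62.5% and 62%. On that scale H2-Aa (-0.95, or -0.54 relative to the median of all genes; limma, adjusted p = 0.0292) and H2-Eb1 (-1.43, or -1.02 relative to that median; adjusted p = 0.0406) passed the test as lower in PF4hLPS kidneys, and in EtOH4hLPS kidneys neither did (adjusted p = 0.113 and 0.305). After quantile normalization H2-Aa was also called lower in PF4hLPS kidneys (-0.74, or -0.62 relative to the median; adjusted p = 0.03). Relative to the median of all genes, the differences of H2-Aa and H2-Eb1 were negative and that of Ciita positive in both diets with each of the 4 scalings. H2-Ab1 with pair-feeding (0.16 and, after quantile normalization, -0.01) and Cd74 with ethanol (0.09 and -0.07) changed sign relative to that median.

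The other class II genes were weakly expressed. Of 7 genes for further chains and for the peptide exchange molecules H2-DM and H2-O, 3 passed the filter (H2-DMa, H2-DMb1 and H2-DMb2) and 0 were called in either diet; none of the 3 had an unadjusted 95% interval clear of 0 other than H2-DMa in ethanol-fed kidneys. H2-DMa, which with H2-DMb removes the invariant chain peptide from class II molecules, had 0.265, 0.633 and 1.27 FPKM in EtOH4hLPS libraries, 1.42, 0.359 and 2.18 in PF4hLPS libraries, 1.71, 2.33 and 1.78 in EtOH libraries and 0.512, 1.45 and 2.06 in PF libraries. The EtOH4hLPS libraries lay below the EtOH libraries (-0.81 ± 0.34, limma, adjusted p = 0.141), and the PF4hLPS and PF libraries overlapped (-0.04 ± 0.34). H2-DMb1 averaged 3.42 ± 0.454, 4.44 ± 2.12, 3.79 ± 1.18 and 3.07 ± 0.464 FPKM in EtOH4hLPS, PF4hLPS, EtOH and PF libraries (SD, n = 3 each), and the groups overlapped.

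Of 10 tested genes for processing and turnover of class II molecules, 4 were called higher in EtOH4hLPS kidneys (Ctsl, Lgmn, Ctsb and Cd83), beside 10.7% of all genes, and 2 in PF4hLPS kidneys (March1 and Cd83), beside 11.3%, none lower, with a list median of 0.38 with ethanol and 0.63 with pair-feeding, beside medians of all genes of 0.018 and -0.007. Cd83, a surface protein of activated antigen-presenting cells that protects class II from ubiquitin-dependent loss, had 9.18, 3.35 and 3.95 FPKM in EtOH4hLPS libraries and 3.55, 5.26 and 6.08 in PF4hLPS libraries, against 1.47, 1.55 and 1.55 in EtOH libraries and 1.44, 2.06 and 1.54 in PF libraries. All 6 LPS values lay above all 6 saline values (1.26 ± 0.29, limma, adjusted p = 0.00978 with ethanol; 1.14 ± 0.29, adjusted p = 0.0166 with pair-feeding). March1, the ubiquitin ligase that sends class II molecules to degradation, had 4.27, 2.33 and 2.41 FPKM in EtOH4hLPS libraries, 4.67, 7.04 and 6.58 in PF4hLPS libraries, 1.87, 3.66 and 3.01 in EtOH libraries and 2.77, 1.84 and 1.74 in PF libraries. It rose in pair-fed kidneys (1.19 ± 0.25, limma, adjusted p = 0.00607), and in ethanol-fed kidneys the groups overlapped (0.05 ± 0.25, adjusted p = 0.932). The cathepsins Ctsl and Ctsb and the asparaginyl endopeptidase Lgmn, lysosomal proteases that also serve tubule cells, were called in ethanol-fed kidneys and not in pair-fed kidneys: 1.02 against 0.63 for Ctsl, 0.84 against 0.64 for Ctsb and 0.86 against 0.73 for Lgmn. With equal totals the list kept only Cd83 in EtOH4hLPS and only March1 in PF4hLPS kidneys.

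Of 18 genes for the box-binding complex and for the interferon pathway that induces Ciita, 16 were tested, and no RFX or NF-Y subunit gene was called higher. In each diet 7 genes were called higher, beside 10.7% of all genes with ethanol and 11.3% with pair-feeding. In EtOH4hLPS kidneys 2 were called lower, beside 6.39%, and in PF4hLPS kidneys 1, beside 6.89%. The list medians were 0.59 and 0.61. With equal totals 5 were called higher in EtOH4hLPS and 4 in PF4hLPS kidneys. Among genes that did not pass in either diet were Usf1 (0.51 in each) and Spi1 (0.66 with ethanol and 0.79 with pair-feeding). Irf1, an interferon-induced factor that acts on the Ciita promoter, had 87.1, 301.9 and 237.7 FPKM in EtOH4hLPS libraries and 128.0, 74.9 and 187.4 in PF4hLPS libraries, against 5.30, 4.81 and 3.76 in EtOH libraries and 4.02, 5.55 and 6.49 in PF libraries. Its log2 fold change was 5.05 ± 0.43 with ethanol (limma, adjusted p = 6.39e-06) and 4.29 ± 0.43 with pair-feeding (adjusted p = 2.53e-05). With ethanol and with pair-feeding, in that order, the myeloid factor gene Irf8 rose by 3.13 ± 0.42 and 2.08 ± 0.42, the kinase gene Jak2 by 1.66 ± 0.15 and 1.69 ± 0.15, and the interferon gamma receptor gene Ifngr2 by 1.40 ± 0.25 and 1.06 ± 0.25. The call of Ifngr2 with pair-feeding was lost with equal totals (0.59, limma, adjusted p = 0.189). Ifng, which did not pass the filter, had 0.236, 0.338 and 0.876 FPKM in EtOH4hLPS libraries and 0.422, 0.799 and 0.742 in PF4hLPS libraries; it is listed at 0 in all 3 EtOH libraries and had 0.0785, 0.0398 and 0.0328 FPKM in PF libraries.

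Of the RFX and NF-Y subunit genes, 2 were called lower with ethanol, beside 6.39% of all genes, and 1 with pair-feeding, beside 6.89%. With equal totals these counts were 4 (with Rfxank and Nfya) and 1. Nfyc, Rfxap and Creb1 were chosen for description after their values were seen. Nfyc, the gamma subunit of NF-Y, had 5.13, 5.95 and 6.27 FPKM in EtOH4hLPS libraries and 9.26, 5.34 and 8.63 in PF4hLPS libraries, against 11.3, 11.1 and 11.7 in EtOH libraries and 13.0, 12.4 and 12.4 in PF libraries. All LPS values were below all saline values (-0.87 ± 0.18, limma, adjusted p = 0.00623 with ethanol; -0.67 ± 0.18, adjusted p = 0.0256 with pair-feeding). Rfxap, a subunit of RFX, had 3.80, 5.09 and 6.17 FPKM in EtOH4hLPS libraries and 7.43, 4.34 and 6.34 in PF4hLPS libraries, against 10.4, 8.91 and 8.06 in EtOH libraries and 7.82, 7.87 and 9.03 in PF libraries. It was called with ethanol (-0.76 ± 0.21, limma, adjusted p = 0.0243) and not with pair-feeding (-0.42 ± 0.21, adjusted p = 0.193). Rfx5, a DNA-binding subunit of RFX, was not called (0.42 with ethanol and 0.48 with pair-feeding), and Creb1 was called higher in PF4hLPS kidneys alone (0.70 ± 0.18, adjusted p = 0.0166), a call lost with equal totals (adjusted p = 0.386).

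Of 9 genes for MHC class I molecules, their peptide supply and their coactivator, 9 were called higher in EtOH4hLPS kidneys, beside 10.7% of all genes. In PF4hLPS kidneys 8 were called higher, beside 11.3%. The list medians were 2.91 and 2.52, and the counts were 9 and 8 with equal totals as well. Nlrc5, the class I counterpart of CIITA, had 20.2, 15.6 and 19.6 FPKM in EtOH4hLPS libraries and 23.9, 29.5 and 29.3 in PF4hLPS libraries, against 0.434, 0.791 and 0.399 in EtOH libraries and 1.01, 0.914 and 0.648 in PF libraries. Tap1, a subunit of the peptide transporter encoded between the class II genes, had 28.1, 58.7 and 69.5 FPKM in EtOH4hLPS libraries and 62.3, 25.5 and 54.1 in PF4hLPS libraries, against 1.83, 1.67 and 1.48 in EtOH libraries and 1.05, 2.96 and 2.00 in PF libraries. Every LPS library was above every saline library for both genes. Nlrc5 reached the filter's 3 libraries only with its LPS libraries and so had to differ. Nlrc5 rose by 3.66 ± 0.17 with ethanol and 3.94 ± 0.17 with pair-feeding, and Tap1 by 4.23 ± 0.38 with ethanol and 3.97 ± 0.38 with pair-feeding. The immunoproteasome gene Psmb9 rose by 3.21 ± 0.39 with ethanol and 3.58 ± 0.39 with pair-feeding, and Psmb8 by 3.06 ± 0.54 with ethanol and 3.24 ± 0.54 with pair-feeding. The transporter subunit gene Tap2 rose by 2.91 ± 0.65 with ethanol, and with pair-feeding its difference of 2.06 ± 0.65 missed the threshold (limma, adjusted p = 0.0531).

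Genes for co-stimulatory and inhibitory ligands, which act beside class II on T cells, rose where they passed the filter. Of 8 such genes 5 passed the filter. All 5 of those were called higher in both diets, beside 10.7% of all genes with ethanol and 11.3% with pair-feeding. Pdcd1lg2, Tnfsf4 and Cd70 did not pass the filter. In the fit without it they differed by 0.12 ± 0.12, 0.02 ± 0.02 and -0.03 ± 0.02 with pair-feeding and were not called. Cd274, the ligand of the inhibitory receptor PD-1, had 70.1, 76.5 and 79.8 FPKM in EtOH4hLPS libraries and 56.1, 54.0 and 61.8 in PF4hLPS libraries, against 1.08, 1.09 and 0.919 in EtOH libraries and 1.19, 0.993 and 1.11 in PF libraries. With ethanol and with pair-feeding, in that order, Cd40, a receptor for T cell help, rose by 4.48 ± 0.46 and 3.86 ± 0.46, and the co-stimulators Cd86 by 1.73 ± 0.24 and 1.68 ± 0.24, Icosl by 1.49 ± 0.26 and 1.64 ± 0.26 and Cd80 by 1.20 ± 0.21 and 1.27 ± 0.21 (limma, adjusted p at most 0.00177 in these 8 tests). Cd40, Cd80 and Cd86 reached the filter's 3 libraries only with their LPS libraries and so had to differ.

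**Figure D3:**
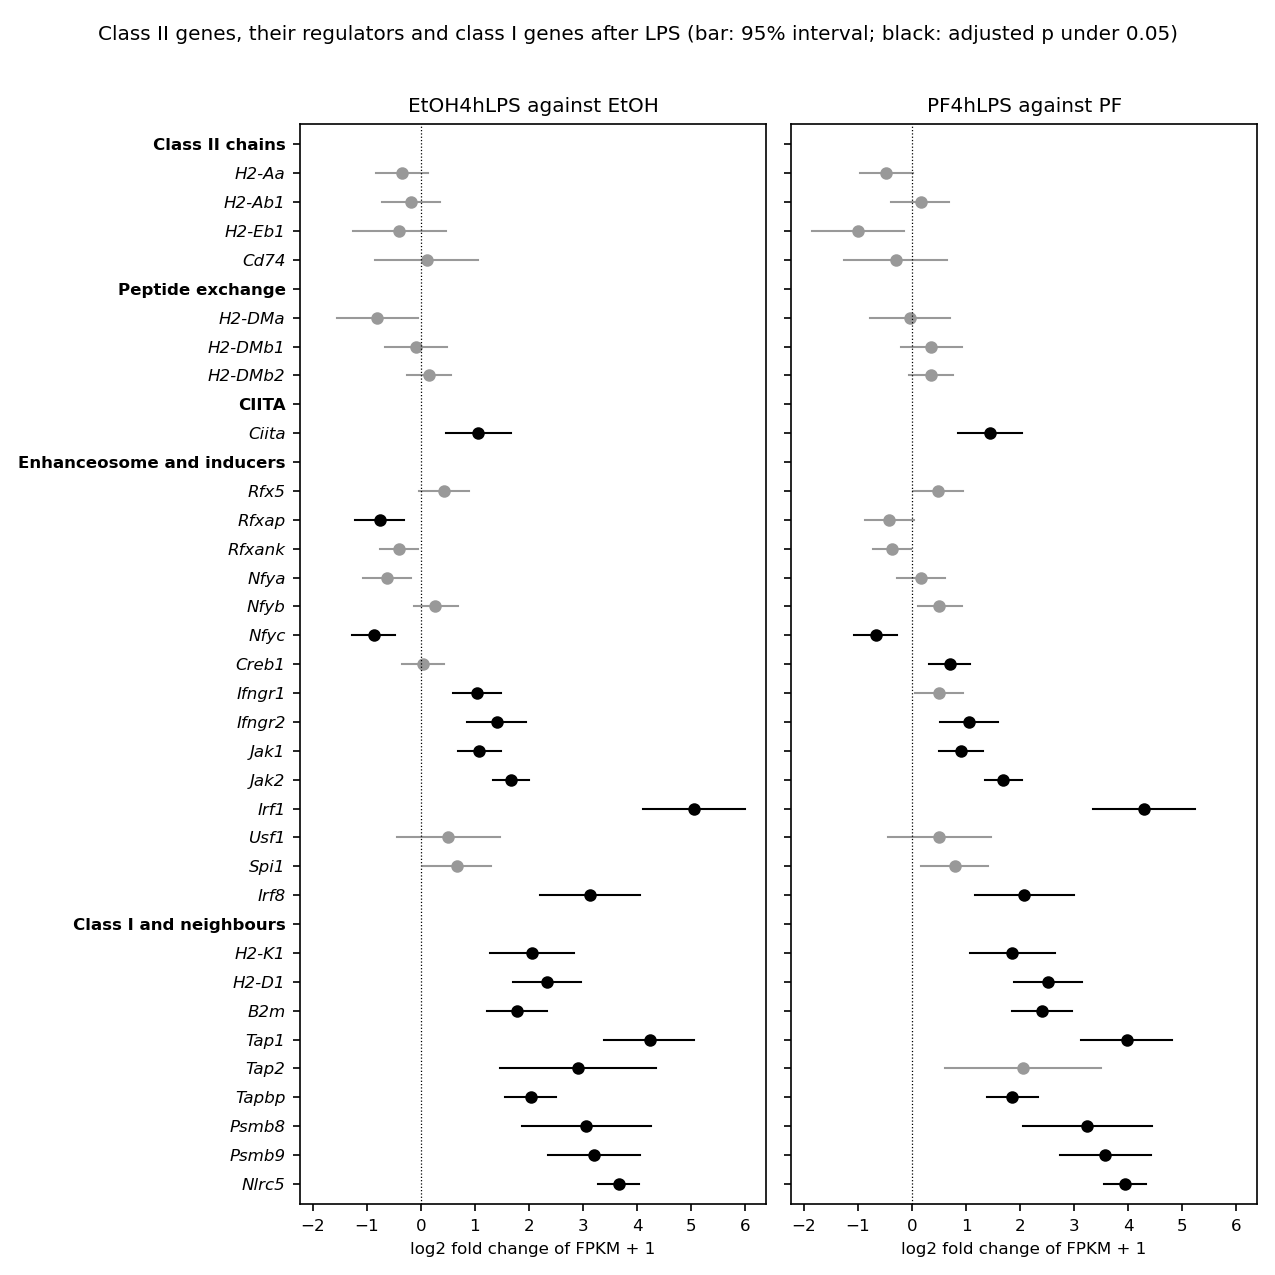
Log2 fold change of FPKM + 1 with its 95% interval for class II chains, peptide exchange genes, Ciita, genes of the box-binding complex and of the induction of Ciita, and genes of the class I pathway, in EtOH4hLPS against EtOH (left) and PF4hLPS against PF (right). Black marks adjusted p under 0.05 in limma. None of the class II chains is marked black, while Irf1, Nlrc5 and Tap1 lie above 3.

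Among the phagocyte genes, Cx3cr1 (chr9:119901616-120069879, minus strand, 4 merged exons) showed the clearest response. It had 0.0168 and 0.0481 FPKM in EtOH4hLPS libraries 1 and 2 and is listed at 0 in library 3, and it had 0.0180, 0.0911 and 0.0163 FPKM in PF4hLPS libraries, against 0.834, 0.612 and 0.965 in EtOH libraries and 1.14, 0.812 and 0.981 in PF libraries. The highest LPS value was below the lowest saline value in both diets. Cx3cr1 reached 1 FPKM in fewer than 3 libraries and was therefore outside the 14109 genes tested. In a fit of all 36616 genes above 0 in some library, an alternative whose further settings for this gene were chosen after seeing the data, it fell by 0.82 ± 0.11 on the log2 scale in EtOH4hLPS against EtOH kidneys (limma, adjusted p = 0.00145) and by 0.92 ± 0.11 in PF4hLPS against PF kidneys (adjusted p = 0.000569), beside 1.93% and 1.91% of all genes called lower in that fit. With only the 2 pair-fed groups in that fit the adjusted p was 1, and in its other settings the call stood in both diets (adjusted p 0.000112 to 0.016).

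Csf1r (chr18:61100598-61132149, plus strand, 24 merged exons), the receptor for CSF1 and IL-34 on which resident macrophages depend, had 1.92, 4.10 and 2.57 FPKM in EtOH4hLPS libraries, 3.67, 1.76 and 2.08 in PF4hLPS libraries, 3.74, 5.34 and 3.29 in EtOH libraries and 4.35, 4.15 and 4.29 in PF libraries. The PF4hLPS libraries lay below the PF libraries, while EtOH4hLPS library 2 was above 2 of the EtOH libraries. The log2 difference was -0.43 ± 0.25 for EtOH4hLPS against EtOH (limma, adjusted p = 0.307) and -0.63 ± 0.25 for PF4hLPS against PF (adjusted p = 0.11). The second passed the threshold with equal totals (-0.97, or -0.56 relative to the median of all genes; adjusted p = 0.0416) and without PF4hLPS library 1 (-0.85, adjusted p = 0.0362). Csf1r shares 873 exonic bases with Hmgxb3 on the opposite strand, which averaged 3.95, 2.95, 3.47 and 3.58 FPKM in EtOH4hLPS, PF4hLPS, EtOH and PF libraries and was not called (adjusted p = 0.76 with ethanol and 0.519 with pair-feeding).

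Taking the library values alone, 1 of the 9 genes had groups that did not overlap in the lower direction in each diet: H2-Aa with ethanol, beside 14.8% of all genes tested, and Csf1r with pair-feeding, beside 15.7%. In the higher direction, Ciita and Lyz2 had groups that did not overlap in either diet, beside 18.8% of all genes with ethanol and 18.5% with pair-feeding.

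Adgre1 (chr17:57358691-57483527, plus strand, 22 merged exons), an adhesion receptor widely used to identify mouse macrophages, had 1.24, 0.558 and 1.34 FPKM in EtOH4hLPS libraries, 1.09, 1.00 and 1.34 in PF4hLPS libraries, 1.20, 1.10 and 1.43 in EtOH libraries and 1.28, 1.15 and 1.34 in PF libraries. Apart from EtOH4hLPS library 2 the values of all groups lay within a narrow band. The log2 difference was -0.15 ± 0.17 with ethanol (95% interval -0.53 to 0.23) and -0.08 ± 0.17 with pair-feeding (-0.46 to 0.30). Cd68 (chr11:69664213-69666153, minus strand, 6 merged exons), a lysosomal membrane glycoprotein of phagocytes, had 0.346, 0.661 and 1.58 FPKM in EtOH4hLPS libraries, 1.08, 0.180 and 1.66 in PF4hLPS libraries, 0.719, 1.73 and 0.613 in EtOH libraries and 0.758, 0.389 and 1.23 in PF libraries. It varied within groups as much as between them, with PF4hLPS library 2 lowest, and its log2 difference was -0.13 ± 0.34 with ethanol (95% interval -0.88 to 0.62) and 0.09 ± 0.34 with pair-feeding (-0.66 to 0.84).

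Lyz2 (chr10:117277331-117282321, minus strand, 4 merged exons), the lysozyme of macrophages, monocytes and neutrophils, had 9.90, 6.39 and 13.9 FPKM in EtOH4hLPS libraries, 19.0, 12.6 and 43.5 in PF4hLPS libraries, 5.35, 5.20 and 6.30 in EtOH libraries and 6.60, 8.19 and 10.3 in PF libraries. The LPS libraries lay above the saline libraries of the same diet in both diets. It rose in PF4hLPS against PF kidneys by 1.31 ± 0.38 (limma, adjusted p = 0.0321), and the difference for EtOH4hLPS against EtOH was 0.69 ± 0.38 (adjusted p = 0.271). The call rested on the library set: it was lost without PF4hLPS library 3, whose value was the highest (0.84, adjusted p = 0.0814), without PF library 1, 2 or 3 (adjusted p = 0.0939, 0.089 and 0.0523), without the filter on low values (adjusted p = 0.0974), with only the pair-fed groups in the fit (adjusted p = 0.0945) and with equal totals (0.85, or 1.25 relative to the median of all genes; adjusted p = 0.125). The near-identical paralog Lyz1 had at most 0.151 FPKM in any library.

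Of the 3 genes for ligands of CSF1R and CX3CR1, 3 were called higher with ethanol, beside 10.7% of all genes. With pair-feeding 1 was called higher, beside 11.3%. Csf1 had 49.0, 65.5 and 62.7 FPKM in EtOH4hLPS libraries and 56.3, 46.0 and 47.9 in PF4hLPS libraries, against 1.69, 2.32 and 2.14 in EtOH libraries and 1.75, 1.84 and 2.18 in PF libraries. The groups were far apart (4.29 ± 0.16, limma, adjusted p = 6.22e-09 with ethanol; 4.12 ± 0.16, adjusted p = 8.58e-09 with pair-feeding). Il34, the second ligand of CSF1R, had 4.49, 9.74 and 16.6 FPKM in EtOH4hLPS libraries, 13.6, 6.33 and 10.5 in PF4hLPS libraries, 2.04, 2.22 and 1.34 in EtOH libraries and 3.26, 6.92 and 7.78 in PF libraries. It rose with ethanol (1.83 ± 0.41, adjusted p = 0.00948) and overlapped with pair-feeding (0.68 ± 0.41, adjusted p = 0.289). Cx3cl1, the fractalkine that CX3CR1 binds, rose with ethanol (1.33 ± 0.40, adjusted p = 0.0398), a call lost with equal totals (adjusted p = 0.163), and its difference with pair-feeding was 0.52 ± 0.40 (adjusted p = 0.416).

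Of 20 further resident macrophage genes 13 passed the filter. In EtOH4hLPS kidneys 1 of the 13 was called higher, beside 10.7% of all genes, and in PF4hLPS kidneys 4 were called higher, beside 11.3%, and 1 lower, beside 6.89%, with list medians of 0.03 and -0.10. Those called higher were Fc receptor genes and the integrin gene Itgam, which monocytes and neutrophils also use: Fcer1g rose by 1.15 ± 0.29 with ethanol and 1.77 ± 0.29 with pair-feeding, and in pair-fed kidneys Fcgr1 rose by 1.49 ± 0.31, Fcgr3 by 1.25 ± 0.25 and Itgam by 0.87 ± 0.16. Fcgr1 and Itgam reached the filter's 3 libraries only with their LPS libraries. Aif1, a cytoplasmic actin-binding protein of macrophages, had 0.228, 1.18 and 0.397 FPKM in EtOH4hLPS libraries, and 1.02 and 0.439 in PF4hLPS libraries 1 and 3 with library 2 listed at 0, against 1.43, 1.05 and 1.99 in EtOH libraries and 1.71, 1.66 and 2.05 in PF libraries; it was called lower with pair-feeding (-0.97 ± 0.28, limma, adjusted p = 0.0306). Aif1 reached the filter's 3 libraries only with its saline libraries. The complement genes C1qa, C1qb and C1qc, typical of resident macrophages, were not called. C1qb had 1.87, 1.98 and 3.10 FPKM in EtOH4hLPS libraries, 3.05, 0.997 and 4.40 in PF4hLPS libraries, 2.25, 3.22 and 2.32 in EtOH libraries and 1.43, 2.84 and 3.60 in PF libraries, and all groups overlapped.

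Of 10 macrophage transcription factor genes, 3 were called higher and 2 lower in EtOH4hLPS kidneys, and 5 higher and 1 lower in PF4hLPS kidneys. Of all genes, 10.7% were called higher and 6.39% lower with ethanol, and 11.3% higher and 6.89% lower with pair-feeding. Cebpb, a factor of inflammatory activation, rose by 3.58 ± 0.22 with ethanol and 4.00 ± 0.22 with pair-feeding. Cebpa, its relative in myeloid differentiation, fell by 0.86 with ethanol and 1.05 with pair-feeding. Maf was called lower with ethanol (-2.09 ± 0.40, limma, adjusted p = 0.00341) and not with pair-feeding (-0.64 ± 0.40, adjusted p = 0.301), where it passed with equal totals (-1.13, adjusted p = 0.0373). Of 10 tested genes of lysosomes and phagocytosis, 5 were called higher in each diet and none lower, beside the same shares of all genes. Among those called, with ethanol and then with pair-feeding, were the galectin gene Lgals3 (1.65 ± 0.24 and 1.59 ± 0.24) and the oxidase subunit gene Cybb (1.43 ± 0.24 and 1.83 ± 0.24). The scavenger receptor gene Msr1 (0.91 ± 0.21 and 1.92 ± 0.21) was also called, and it reached the filter's 3 libraries only with its LPS libraries.

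Summed markers of neutrophils and of inflammatory monocytes were higher with LPS in the same libraries. The summed FPKM of 8 neutrophil genes was 168.2 to 257.7 in EtOH4hLPS and 183.6 to 421.5 in PF4hLPS libraries, against 3.43 to 5.58 in EtOH and 3.46 to 5.60 in PF libraries. Of these genes 5 passed the filter, and 4 were called higher in each diet (S100a8, S100a9, Retnlg and Mmp8). Of all genes, 10.7% were called higher with ethanol and 11.3% with pair-feeding. The neutrophil surface marker Ly6g is listed at 0 or below 0.84 FPKM in every library. The summed FPKM of 8 inflammatory monocyte genes was 82.2 to 238.6 in EtOH4hLPS and 153.3 to 428.4 in PF4hLPS libraries, against 15.8 to 19.6 in EtOH and 22.1 to 25.9 in PF libraries. Of these monocyte genes 7 passed the filter. With ethanol 4 were called higher, beside 10.7% of all genes, and 1 lower, beside 6.39%. With pair-feeding 5 were called higher, beside 11.3%, and 1 lower, beside 6.89%. The gene called lower was Ccr2 in both diets, and Fn1 was called in neither. Lyz2, Cd68, Itgam and the Fc receptor genes are also expressed by these cells, and the part of neutrophils and monocytes in the rise of Lyz2 was not tested. With ethanol and with pair-feeding, in that order, Plac8 rose by 3.78 ± 0.41 and 3.90 ± 0.41, Chil3 by 2.64 ± 0.42 and 3.99 ± 0.42, and Vcan by 2.02 ± 0.24 and 2.37 ± 0.24. Chil3, Vcan, Retnlg and Mmp8 reached the filter's 3 libraries only with their LPS libraries.

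Ccr2, the chemokine receptor that defines classical monocytes, fell, as Cx3cr1 did. It had 0.808, 0.274 and 0.707 FPKM in EtOH4hLPS libraries and 1.02, 1.54 and 1.54 in PF4hLPS libraries, against 2.28, 3.44 and 3.70 in EtOH libraries and 4.43, 3.23 and 3.98 in PF libraries. All LPS values were below all saline values (-1.37 ± 0.20, limma, adjusted p = 0.000505 with ethanol; -1.04 ± 0.20, adjusted p = 0.00346 with pair-feeding). In the same libraries, 4 of 10 genes of dendritic cells, which also present antigen on class II, were tested. Of these 4, 0 were called in EtOH4hLPS kidneys and 1 was called lower in PF4hLPS kidneys, beside 6.89% of all genes. That gene was Zbtb46, a factor of conventional dendritic cells and of endothelium, at -0.48 ± 0.16 with ethanol (limma, adjusted p = 0.0636) and -0.62 ± 0.16 with pair-feeding (adjusted p = 0.0189). The 5 B cell genes summed to at most 2.03 FPKM and the 8 T and NK cell genes to at most 3.49 FPKM in any library. Of 5 endothelial genes, 4 were called lower in both diets (Ptprb, Kdr, Emcn and Pecam1), beside 6.39% of all genes with ethanol and 6.89% with pair-feeding. Cdh5 rose, a call lost with equal totals in pair-fed kidneys (limma, adjusted p = 0.122).

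**Figure D4:**
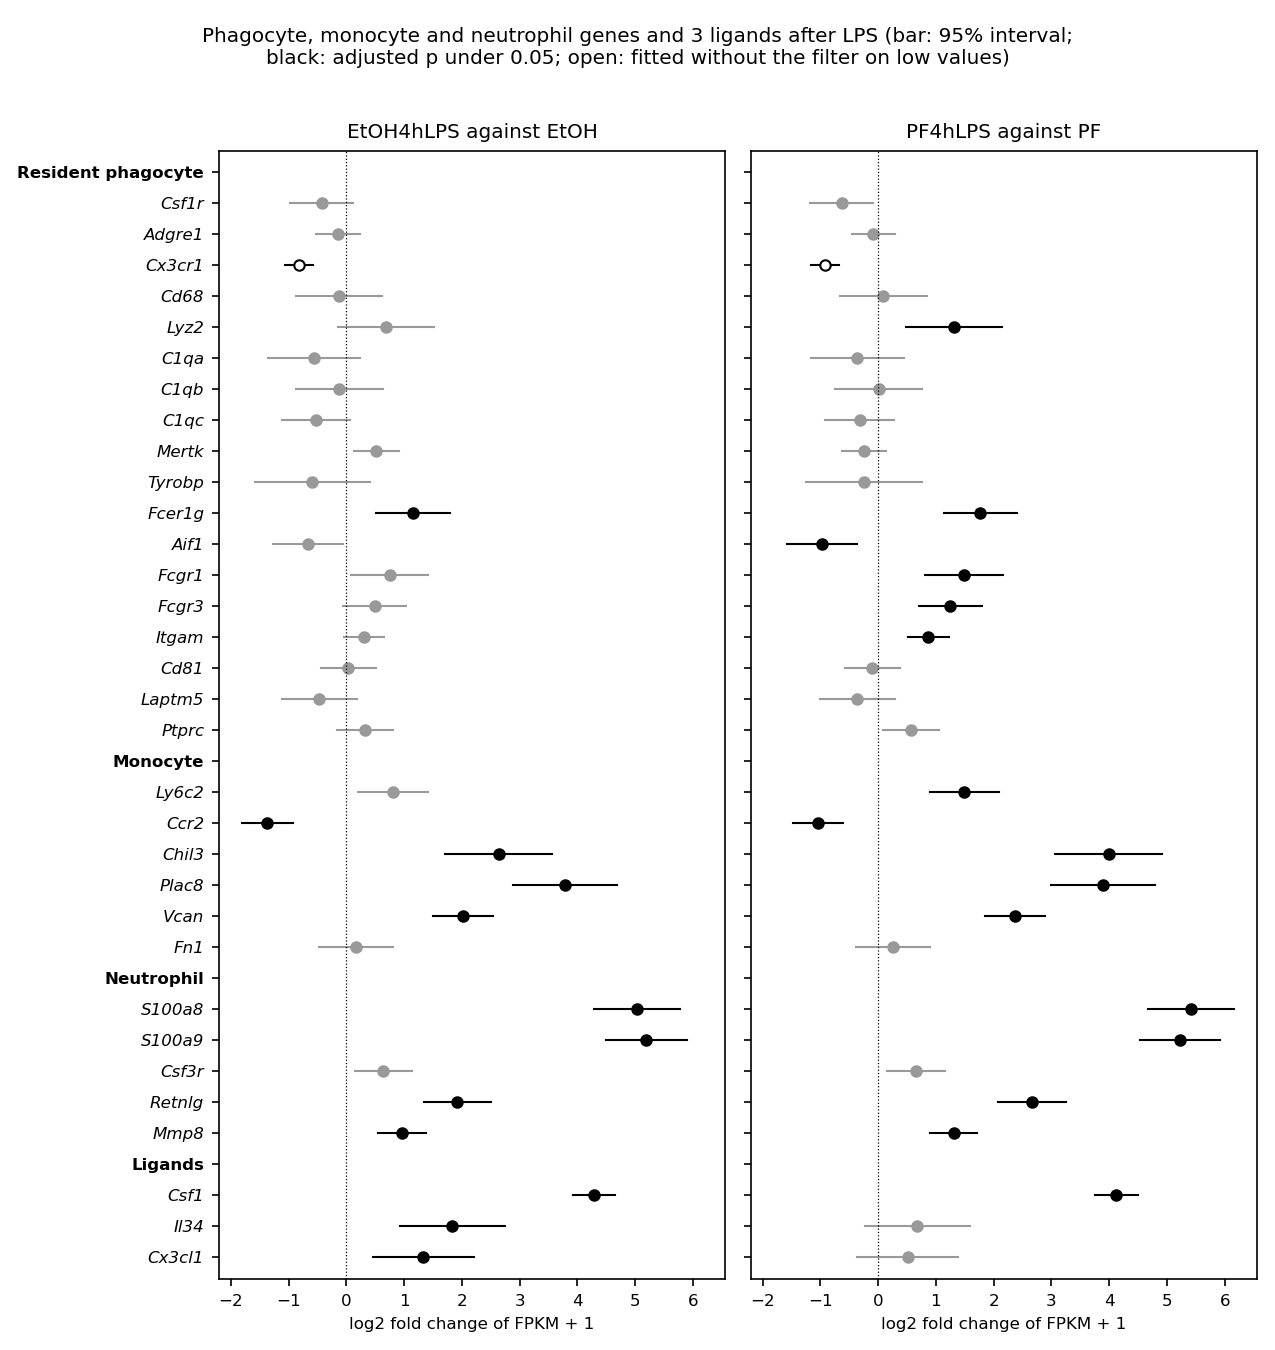
Log2 fold change of FPKM + 1 with its 95% interval for resident phagocyte genes, for some monocyte and neutrophil genes and for 3 ligands, in EtOH4hLPS against EtOH (left) and PF4hLPS against PF (right). Black marks adjusted p under 0.05 in limma and the open circle the fit without the filter on low values. Cx3cr1 and Ccr2 lie below 0 in both panels, while S100a8, S100a9 and Csf1 lie above 4.

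Ethanol feeding moved none of the genes past the threshold. In EtOH against PF kidneys 0 of 9 were called, beside 0.0284% of all genes tested, with 0 at an unadjusted p under 0.05 and log2 differences from -0.48 to 0.16. In EtOH4hLPS against PF4hLPS kidneys 0 of 9 were called, beside 0.0992% of all genes, and 1 passed 0.05 before adjustment. That gene was Lyz2, at -1.11 ± 0.38 (limma, adjusted p = 0.314), and its groups overlapped. Over both LPS states together 0 of 9 were called, beside 0.319% of all genes. Lyz2 was again the 1 gene that passed 0.05 before adjustment (-0.80 ± 0.27, limma, adjusted p = 0.319). Without LPS, the EtOH values of Lyz2 lay below the PF values (-0.48 ± 0.38, adjusted p = 1).

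Whether the response to LPS differed between the diets was tested with an interaction term, in which 0 of 9 genes were called, beside 0.0284% of all genes, and 0 had an unadjusted p under 0.05. The differences between the diets' log2 responses, ethanol minus pair-feeding, ran from -0.63 to 0.59, with -0.38 ± 0.38 for Ciita (95% interval -1.23 to 0.46) and -0.63 ± 0.53 for Lyz2 (-1.80 to 0.54). The call of Lyz2 in pair-fed kidneys alone is therefore not shown to be a difference between diets. The same holds for other genes called in 1 diet only. These were Ctsl, Ctsb, Lgmn, March1, Rfxap, Creb1, Tap2, Il34, Cx3cl1, Fcgr1, Fcgr3, Itgam, Aif1, Maf and Zbtb46 (limma, interaction adjusted p = 0.988 each). Before adjustment the interaction p was under 0.05 for March1, Creb1, Itgam and Maf. For Cx3cr1 the interaction was 0.11 ± 0.16 in the fit without the filter (adjusted p = 0.927).

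Genes were ranked by how like their profile over the 12 libraries was to the mean of H2-Aa, H2-Ab1, H2-Eb1 and Cd74. Class II genes were left out or too weakly expressed to be ranked, so the ranking cannot tell whether they share this profile. Of 8204 protein-coding genes compared, Ppp1r14b, Mtg2, Rnf187, Htatip2 and Asl were closest, with root mean square differences of 0.121 to 0.144 on the log2 scale, where the median gene differed by 0.502 and the class II profile itself varied by 0.363. Among the closest to the mean of Csf1r, Adgre1 and Cx3cr1 were Tmem129, Tsnax, Dido1 and Ubtf, at 0.101 to 0.124, where the median gene differed by 0.438 and that profile varied by 0.26. The 12 libraries share depth, scaling and GC effects, so this likeness is a description of the values.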

How the data were processed

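Each of the 12 libraries has 1 column in a table of FPKM values that the authors deposited, covering 47719 Ensembl genes. The submitters' processing notes name build mm10 and the tools Cuffnorm, Cuffdiff 2.1.1, Cufflinks 2.2.1, TopHat2 2.0.4 and FastQC 0.10.1, but no annotation release or strand setting. Per the labels' protocols, total RNA was depleted of ribosomal RNA and made into stranded libraries. FPKM are not counts, so no count model was run and no counting interval is given.

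GENCODE M21 (GRCm38) supplied symbols, exons and coordinates and matched 47305 identifiers. Values were analysed as log2(FPKM + 1) after a filter of at least 1 FPKM in at least 3 of the 12 libraries. The tests are those of limma 3.58.1 under R 4.3.3, in one model of 4 group means with 8 residual degrees of freedom, using limma's trend and robust options. All p-values are two-sided; adjustment (Benjamini-Hochberg, threshold 0.05) covers every gene tested in a comparison. Errors of fold changes are standard errors. The fit was tested on simulated data. Promoter sequences are RefSeq's.

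All 10 genes are named, and of each further list up to 5 called genes with the largest mean change over both LPS comparisons, besides genes whose values bear on a result. Some genes that this rule or the likeness ranking picks are not reported here, though list counts include them. The 10 genes and the lists were chosen with earlier results of these data known. Alternatives were 3 other scalings, a pseudocount of 0.1, no filter, a replicate block, only the groups compared, limma without trend and robust options, and leaving out each library; those for Cx3cr1 without the filter were added after seeing the data.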

Additional observations from a re-analysis of the deposited data

How the results depend on the processing

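The number of the 9 tested genes called in PF4hLPS against PF kidneys was 2 (Ciita and Lyz2, both higher). With libraries scaled to equal FPKM totals 4 were called: Ciita as higher, and H2-Aa, H2-Eb1 and Csf1r as lower. After quantile normalization H2-Aa was called lower, and Ciita and Lyz2 higher. The number was 1 with only the groups compared in the fit, and 1 to 3 with 1 library left out (1 without PF4hLPS library 3 or any PF library). In EtOH4hLPS against EtOH kidneys it was 1, and 0 to 1 with 1 library left out (0 without EtOH4hLPS library 3 or EtOH library 2 or 3). It stayed at 0 for both ethanol comparisons, their average and the interaction in every alternative run. The replicate numbers did not pair the libraries: of 18 same-numbered pairs, 5 had correlated deviations above 0.1, and 3 of 12 libraries correlated best with their own number. A replicate block changed the call of none of the 10 genes in any comparison.

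The number of all genes called, the background of those counts, was 2561 in PF4hLPS against PF kidneys (1615 to 2734 with 1 library left out, lowest without PF library 2) and 2406 in EtOH4hLPS against EtOH kidneys (1697 to 2647). For EtOH against PF it was 4, with 8 without the filter, 16 with only the groups compared, and 1 to 6 with 1 library left out. For EtOH4hLPS against PF4hLPS it was 14, with 2 at equal totals (1 of them higher, where 35.7% of the 14 were), 6 with a pseudocount of 0.1, 1 without the filter, 2 with the replicate block, 7 in plain limma, and 0 to 42 with 1 library left out. For both ethanol groups against both pair-fed groups it was 45, with 26 at equal totals, 13 without the filter, 9 with the replicate block, and 5 to 74 with 1 library left out. For the interaction it was 4, with 7 without the filter and 2 to 6 with 1 library left out. The cause of these shifts was not tested. Among single genes, 977 values kept direction and side of the threshold, 11 lost the call, 5 gained it and 69 moved; no called value reversed. Depth, lowest in PF4hLPS library 2 (0.491 of that of PF library 1), limits what low genes such as Cd68, H2-DMa and Cx3cr1 can show.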
